A study of Fukomys damarensis and Heterocephalus glaber and Cavia porcellus with 28 samples.

Results

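The genes described here carry out calcium cycling in heart muscle cells: Ryr2, Casq2, Casq1, Trdn, Jph2, Atp2a2, Pln, Sln, Cacna1c and Slc8a1. They were taken by symbol through the mouse Ensembl identifiers of a heart table and a liver table, each with 13928 rows. Of the 10 genes, 9 were analysed in both tissues. Slc8a1, the cardiac sodium-calcium exchanger gene, was not analysed here. The genes were listed by their role, not by a measured value.

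In each heartbeat a small calcium current through the L-type channel, whose pore is encoded by Cacna1c, opens the ryanodine receptor RYR2 on the sarcoplasmic reticulum, the internal calcium store. Calsequestrin (Casq2 in heart, Casq1 chiefly in skeletal muscle) buffers calcium inside the store, triadin (Trdn) ties it to the receptor, and junctophilin 2 (Jph2) holds the store membrane against the surface membrane. Relaxation follows when the pump SERCA2a, encoded by Atp2a2, returns calcium to the store, with phospholamban (Pln) and sarcolipin (Sln) as small membrane proteins that hold the pump back. Sln is best known from atrial and skeletal muscle, and mouse ventricle is known to have little of it.

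Heart and liver of 4 rodent species were compared by sequencing total RNA from which ribosomal RNA had been removed, starting from 10 to 50 mg of frozen tissue. The species were the naked mole-rat (ages 13 to 17 months), the Damaraland mole-rat (36 to 48 months), and, as outgroups, the guinea pig (2.3 months) and the mouse (2 months). Heart libraries numbered 3, 5, 3 and 3 in that order, and liver libraries 4, 5, 3 and 2, from 18 animals of which 10 gave both tissues. All animals were male except 1 female Damaraland mole-rat with a liver library. No treatment was labelled, and strain, colony and heart chamber were not given in the sources used here. Age and species cannot be told apart, and in tissue RNA fewer cells of a type and less RNA per cell cannot be told apart either.

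Values are the deposited variance-stabilised ones, on a scale like log2 for abundant genes, where a gene with 0 reads stands at 5.36 in heart and 4.29 in liver. Scaled reads are the reads recovered from these values divided by the library's size factor. Gene length enters neither, so levels are compared between species for 1 gene and never between genes, and a gene model of another length in another species would change its level. A gene was called higher or lower at a limma p, adjusted over all genes tested, under 0.05 together with a difference of at least 1. Errors of differences are standard errors (SE) from that fit.

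Recovered reads ran from 4089633 to 26985779 per heart library and from 11220505 to 21467939 per liver library. The heart label held for the defining markers: Tnnt2, cardiac troponin T, was between 15.57 and 17.73 in all 14 heart libraries. Summed scaled reads of 7 cardiomyocyte markers were 391909 to 886072 in naked mole-rat, 1140872 to 1619063 in Damaraland mole-rat, 658728 to 768237 in guinea pig and 924234 to 1028545 in mouse. Naked mole-rat heart replicate 3 stood apart: it had the lowest depth, and its rank correlation with the other naked mole-rat hearts was 0.955 and 0.956, against 0.990 between those hearts. The 3 heart libraries highest in Bmp10 and Myl4, marker genes of atrial muscle, came from different species. Guinea pig replicate 2, naked mole-rat replicate 3 and Damaraland replicate 5 had 6237, 6097 and 3323 scaled reads of both together, and the other 11 had between 26.5 and 1036. Hepatocyte markers (Alb, Ttr and Fgb) summed to 10151 to 28751 scaled reads in the naked mole-rat hearts and to 270 to 4884 in the other hearts, and their part in the results was not tested.

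In heart, 3 of the 9 genes were called between the mean of both mole-rats and the mean of both outgroups, where 23.4% of all 10667 genes tested were. This comparison was added after seeing the data. Trdn and Atp2a2 were lower in the mole-rats (differences -1.47 and -1.05, SE 0.13 and 0.16, limma adjusted p = 4.91e-08 and 1.94e-05) and Sln was higher (1.64, SE 0.55, adjusted p = 0.0154). In each of the 3 genes the libraries of mole-rats and outgroups overlapped. Against guinea pig, Atp2a2 was called in neither naked nor Damaraland mole-rat (-0.39 and -0.14). Naked mole-rat minus guinea pig was 0.57 for Trdn and -1.08 for Sln, neither called and both opposite in sign to the difference of the means. The Atp2a2 call was lost with quantile normalisation (-0.45, adjusted p = 0.0544), with a replicate block (-0.97) and without naked mole-rat replicate 2 (-0.97), and the Sln call without guinea pig replicate 1 (1.27, adjusted p = 0.0553). None of the 9 genes was called with the same sign in all 4 comparisons of a single mole-rat species with an outgroup (limma, also 0 at an unadjusted p under 0.05 and 0 with voom on recovered reads), and the share of all genes that was is 4.68%, so a count of 0 lies near this background.

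Mouse was the species most often apart from the other 3. Trdn, Jph2 and Atp2a2 were called higher and Sln lower in mouse than in each of the other species, 4 genes of 9 against 10.4% of all genes. Cacna1c was called lower in guinea pig alone (background 6.61%) and Trdn lower in Damaraland mole-rat alone (6.76%). No gene was called in naked mole-rat alone with limma (9.02% of all genes). At an unadjusted p under 0.05 there was 1, Casq1, without the size threshold and 0 with it, and voom called Casq1 higher in naked mole-rat alone and did not call Sln lower in mouse alone.

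Guinea pig against mouse gave the most calls: 7 of the 9 genes, 6 lower and Sln higher in guinea pig, where 32.1% of all genes were called. The median of the 9 differences was -1.65, against 0.01 over all genes. Damaraland mole-rat against mouse gave 6 calls, 5 lower and Sln higher (background 34.9%), with a median of -1.39 against 0.01. Naked mole-rat against mouse gave 4 calls, 3 lower and Sln higher (38.2%), and naked mole-rat against guinea pig 4 calls, all higher in naked mole-rat (33.0%). Between the mole-rats 5 genes were called, with Ryr2, Casq2, Casq1 and Trdn higher and Sln lower in naked mole-rat (29.4%). Damaraland mole-rat against guinea pig gave the fewest calls, 2 genes with opposite signs, a share near the background (29.7%). Comparisons that share a species share its libraries, so these counts are not independent of each other. With limma's test against a difference of 1, the counts were 4, 4, 2, 2, 2 and 1 in the order given here. The share of all genes called by that test was not computed.

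**Figure D1:**
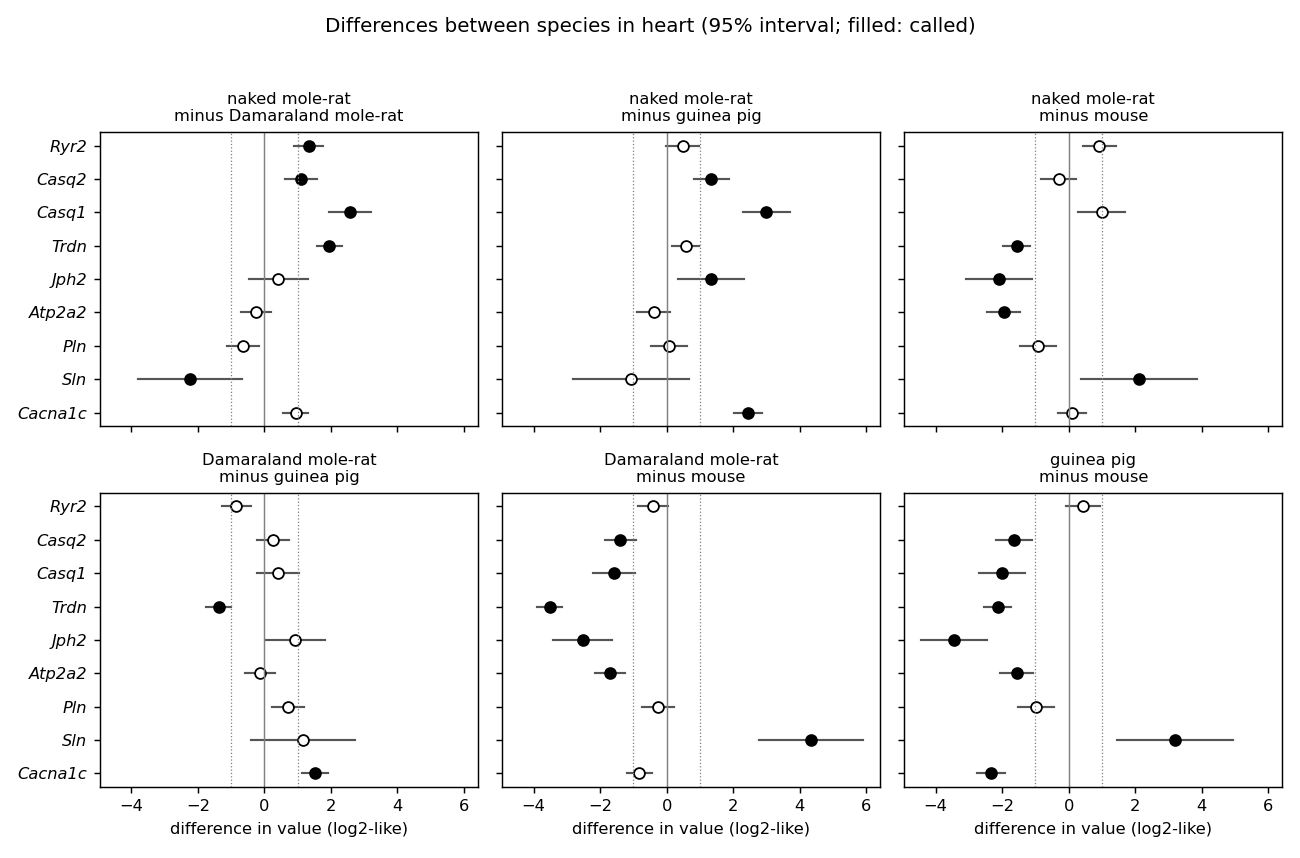
Difference between 2 species in heart for each of the 9 genes (x axis, on the log2-like scale, positive when the species before the word minus is higher), with 95% intervals from limma. Filled points were called, open points were not, and dotted lines mark a difference of 1. The 2 panels of guinea pig and Damaraland mole-rat minus mouse hold the most filled points on the left, with Sln as the only filled point on the right.

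The release channel gene Ryr2 was highest in naked mole-rat. It was 16.98, 16.76 and 17.20 in naked mole-rat replicates 1 to 3 and 15.67, 15.33, 15.81, 16.17 and 15.26 in Damaraland replicates 1 to 5. In guinea pig it was 16.43, 16.50 and 16.54, and in mouse 16.00, 16.05 and 16.14. All naked mole-rat hearts lay above all others, and Damaraland values overlapped those of mouse. The order was naked mole-rat, guinea pig, mouse and Damaraland mole-rat, and no neighbours in it differed past the threshold (limma adjusted p = 0.0828, 0.126 and 0.0934). Naked mole-rat minus mouse was 0.92 and Damaraland mole-rat minus guinea pig -0.84 (limma adjusted p = 0.00262 and 0.00237). Neither of these pairs overlapped, and both differences were under the size threshold. Only the 2 ends were called apart: naked exceeded Damaraland mole-rat by 1.33 (SE 0.21, 95% interval 0.89 to 1.77, adjusted p = 3.97e-05), or 2.47 times the scaled reads. With quantile normalisation, which gives all libraries the same distribution, this Ryr2 difference was 0.75 (adjusted p = 0.0514) and no longer called.

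Calsequestrin 2 (Casq2) set naked mole-rat and mouse above Damaraland mole-rat and guinea pig. Its values were 13.71, 13.71 and 14.51 in naked mole-rat and 14.13, 14.48 and 14.22 in mouse, which overlap. In Damaraland mole-rat they were 12.82, 13.19, 13.21, 12.31 and 12.89, and in guinea pig 12.65, 12.58 and 12.67, which also overlap. No library of the upper pair fell into the range of the lower pair. Mouse exceeded guinea pig by 1.65 (the difference guinea pig minus mouse was -1.65, SE 0.25, adjusted p = 2.83e-05) and had 3.17 times its scaled reads of Casq2. Naked exceeded Damaraland mole-rat in Casq2 by 1.10 (SE 0.22, adjusted p = 0.000441), and without naked mole-rat replicate 3 by 0.83 (adjusted p = 0.00343), under the size threshold. Without Damaraland replicate 4 it was 0.95, with a replicate block 0.91 and with array weights 0.71, each under the size threshold too.

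The skeletal calsequestrin Casq1 showed the same split of species with larger differences. It was 10.16, 9.58 and 9.27 in naked mole-rat and 8.08, 9.49 and 8.45 in mouse, against 7.32, 7.30, 7.54, 6.81 and 6.46 in the Damaraland hearts and 6.47, 6.86 and 6.67 in those of guinea pig. The naked mole-rat mean of 763 scaled reads was 10.7 times that of Damaraland mole-rat and 20.8 times that of guinea pig (differences of 2.58, SE 0.30, and 3.004, SE 0.33, limma adjusted p = 1.26e-06 and 8.59e-07). Naked mole-rat and mouse Casq1 overlapped in range, with a difference of 0.997 (SE 0.33, adjusted p = 0.0147) that lay just under the size threshold. It was called with voom (1.26), with quantile normalisation (1.07) and without mouse replicate 2 (1.41), and was 0.70 (adjusted p = 0.0932) without mouse replicate 1. Damaraland mole-rat and guinea pig Casq1 did not differ past the threshold (0.42, 95% interval -0.21 to 1.05).

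Because Casq1 is chiefly a skeletal muscle gene, markers of that tissue were read beside it. The 9 skeletal muscle markers analysed of 10 summed to 8079 to 10458 scaled reads in naked mole-rat hearts, 3597 to 9807 in mouse, 2124 to 20194 in Damaraland mole-rat and 1506 to 3251 in guinea pig. Pvalb was at 0 reads in all naked mole-rat hearts and Tnnt3 in all guinea pig hearts. The library with the highest sum, Damaraland replicate 2, had a Casq1 value of 7.30, in the middle of its group. Within naked mole-rat and within mouse, Casq1 was lowest in the library with the lowest sum and highest in the library with the highest. Within guinea pig and within Damaraland mole-rat this held for the lowest but not for the highest. The part of skeletal muscle RNA in the species differences was not tested.

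Triadin (Trdn), the partner that anchors calsequestrin to the release channel, gave the clearest separation of all 4 species. No 2 species overlapped: mouse stood at 12.41, 12.59 and 12.55, naked mole-rat at 10.94, 10.74 and 11.17, guinea pig at 10.34, 10.44 and 10.34, and Damaraland mole-rat at 8.52, 9.09, 8.86, 9.17 and 9.37. Mouse had 13.0 times the scaled reads of Damaraland mole-rat (mean difference -3.52 for Damaraland minus mouse, SE 0.17, limma adjusted p = 4.04e-11). Naked mole-rat was lower than mouse by 1.57 (difference -1.57, SE 0.20, adjusted p = 2.78e-06) and higher than Damaraland mole-rat by 1.95 (SE 0.17, adjusted p = 6.97e-08), so that the mole-rats lay on both sides of guinea pig for Trdn. The difference of naked mole-rat and guinea pig was 0.57 (SE 0.20, adjusted p = 0.0181), under the size threshold. Trdn kept its calls against Damaraland mole-rat and against mouse when any single heart library was left out.

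Junctophilin 2 (Jph2) was highest in mouse, at 13.31, 13.40 and 13.52, and lowest on average in guinea pig, at 10.42, 9.58 and 9.90. Damaraland mole-rat was between them at 10.75, 11.01, 10.96, 10.59 and 11.15. Naked mole-rat hearts split, with 12.21 and 12.11 in replicates 1 and 2 and 9.59 in replicate 3, a library with 187 Jph2 reads. Mouse was called above every other species, by 2.10 against naked mole-rat, 2.52 against Damaraland mole-rat and 3.44 against guinea pig as sizes of the differences (limma adjusted p = 0.000861, 5.44e-05 and 8.86e-06). Mouse had 11.4 times the scaled reads of guinea pig for Jph2. These calls held when any single heart library was left out.

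For naked mole-rat the rest of the Jph2 comparisons turned on that library. Naked mole-rat exceeded guinea pig by 1.34 (SE 0.47, adjusted p = 0.0205), and the ranges overlapped. Without naked mole-rat replicate 3 the Jph2 difference was 2.20. It was no longer called without naked mole-rat replicate 1 (0.89, adjusted p = 0.122) or 2 (0.94, 0.114), or without guinea pig replicate 2 (1.14, 0.0797) or 3 (1.31, 0.0524), or in a fit of these 2 species alone (adjusted p = 0.092). Against Damaraland mole-rat the Jph2 difference of 0.42 (SE 0.42, adjusted p = 0.403) became 1.27 and was called without naked mole-rat replicate 3 (adjusted p = 7.03e-05), and it was -0.04 without replicate 1. The same replicate was low in Speg, a kinase of the same junction, at 11.19 against 12.51 and 12.63 in the other naked mole-rat hearts. It was the shallowest library and among the highest in atrial markers, and the part of either was not tested.

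**Figure D2:**
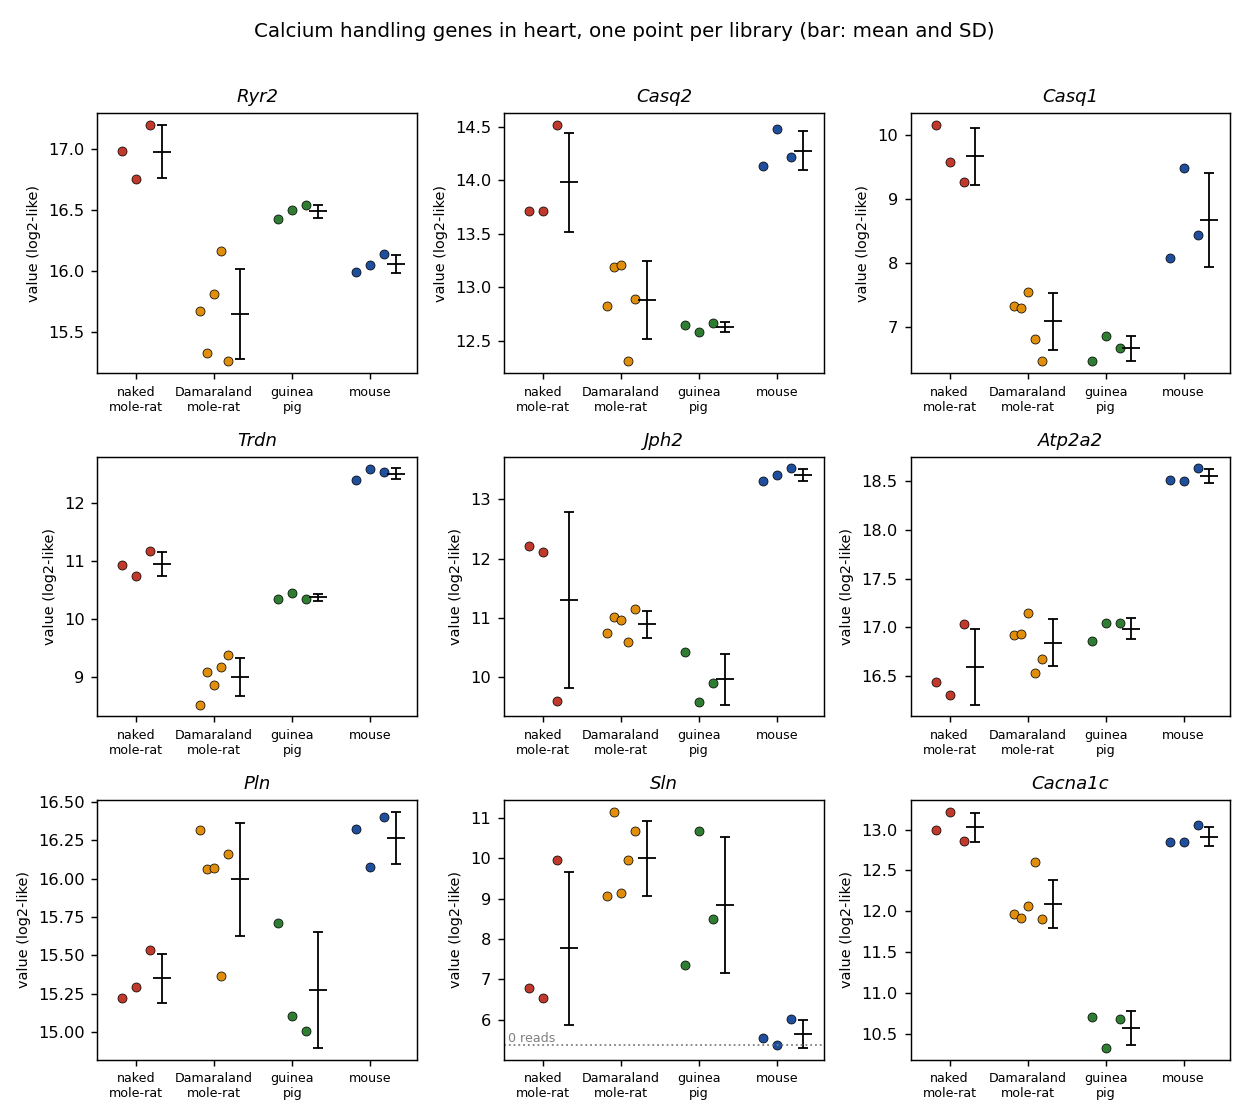
Values of the 9 genes in heart, 1 point per library (y axis, log2-like scale, drawn with its own range in each panel), with the mean and SD of each species beside the points. Replicates run from left to right. Mouse stands alone at the top for Trdn, Jph2 and Atp2a2 and at the bottom for Sln, guinea pig at the bottom for Cacna1c, and 1 naked mole-rat library lies far below the other two for Jph2.

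The calcium pump gene Atp2a2 was higher in mouse than in the other species on the deposited scale. Mouse hearts stood at 18.51, 18.50 and 18.63, and no other heart exceeded 17.15. Naked mole-rat hearts stood at 16.44, 16.31 and 17.04, Damaraland hearts at 16.92, 16.93, 17.15, 16.53 and 16.68, and those of guinea pig at 16.86, 17.05 and 17.04. These 3 species overlapped and none of their pairs differed past the threshold for Atp2a2 (largest difference -0.39 for naked mole-rat minus guinea pig, 95% interval -0.89 to 0.11). Mouse had 3.78, 3.23 and 2.96 times the scaled reads of naked mole-rat, Damaraland mole-rat and guinea pig (differences -1.95, -1.71 and -1.56, limma adjusted p = 1.81e-06, 2.2e-06 and 2.6e-05).

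This Atp2a2 difference depended on the scaling. By rank among all genes Atp2a2 was 7, 8 and 10 in the mouse hearts, 7 to 9 in Damaraland mole-rat, 6 to 12 in guinea pig and 11 to 17 in naked mole-rat, so mouse did not stand out by rank. With quantile normalisation, which compares ranks in effect, Damaraland minus mouse was 0.10 and guinea pig minus mouse was 0.03, both with the opposite sign, and naked mole-rat minus mouse was -0.97. Naked mole-rat was then the species called lower in Atp2a2, with differences of -1.07 against Damaraland mole-rat and -1.001 against guinea pig. Libraries were also set to an equal mean of cardiomyocyte markers, for which Tnnt2, Actc1, Tnni3, Tnnc1 and Mybpc3 were used. The mouse differences of Atp2a2 were then -1.65, -1.78 and -1.23.

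The pump inhibitor Pln differed less between species than any other of these genes, by its largest difference. The main test with all libraries called it in no comparison, because each difference was under the size threshold. It was 15.23, 15.29 and 15.53 in naked mole-rat, 16.31, 16.06, 16.07, 15.37 and 16.16 in Damaraland mole-rat, 15.71, 15.11 and 15.01 in guinea pig and 16.32, 16.07 and 16.40 in mouse. Mouse lay above all naked mole-rat and guinea pig hearts. These Pln differences were -0.92 (SE 0.25, limma adjusted p = 0.00465) for naked mole-rat minus mouse and -0.99 (SE 0.25, adjusted p = 0.00305) for guinea pig minus mouse, just under the size threshold. Both passed it when mouse replicate 2 was left out (-1.01 and -1.08), the former also without naked mole-rat replicate 3 (-1.01) and the latter without guinea pig replicate 1 (-1.21). Damaraland mole-rat and mouse overlapped for Pln (-0.27, 95% interval -0.75 to 0.21). Damaraland mole-rat was also above naked mole-rat and guinea pig in Pln, with overlapping ranges. Naked minus Damaraland mole-rat was -0.64 (SE 0.23, limma adjusted p = 0.021). Damaraland mole-rat minus guinea pig was 0.72 (SE 0.23, limma adjusted p = 0.0114).

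Since both genes come from the same libraries, Pln was also expressed as a percentage of Atp2a2 reads, which does not depend on the scaling of a library. The percentages were 42.9, 49.5 and 35.2 in naked mole-rat and 65.6, 54.8, 47.4, 44.4 and 69.8 in Damaraland mole-rat. They were 44.9, 26.0 and 24.4 in guinea pig and 21.9, 18.5 and 21.3 in mouse. Every mouse heart had less Pln relative to Atp2a2 than every other heart. The mean percentage was 42.5 ± 7.13 (SD, n = 3) for naked mole-rat and 56.4 ± 11.1 (SD, n = 5) for Damaraland mole-rat. It was 31.8 ± 11.4 (SD, n = 3) for guinea pig and 20.6 ± 1.79 (SD, n = 3) for mouse. This quantity was added after the values had been seen and was given no test. Its size reflects transcript length as well as abundance, so only differences between species are read from it. A gene model of another length in another species would change those differences too.

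**Figure D3:**
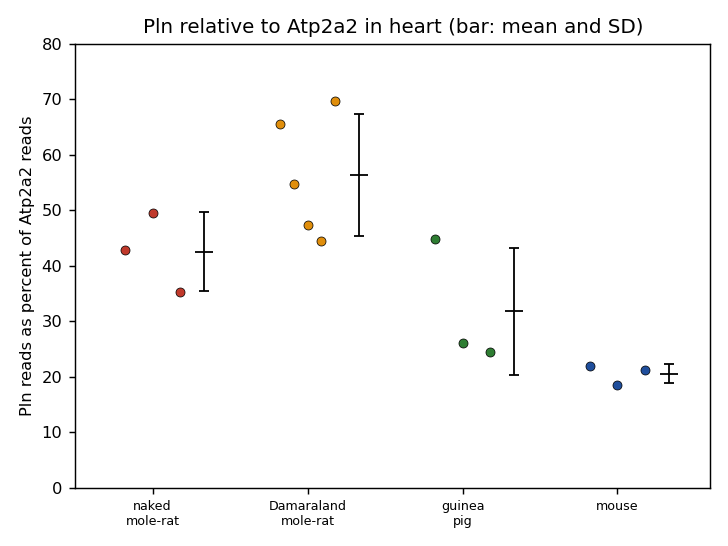
Pln reads as a percentage of Atp2a2 reads in each heart library (y axis, from 0), with the mean and SD of each species. The 3 mouse hearts lie between 18.5% and 21.9%, under all other hearts, and the 5 Damaraland hearts between 44.4% and 69.8%.

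Sarcolipin (Sln) was the most variable of the genes, within species as well as between them. Mouse hearts held 1, 0 and 11 reads of it, at values of 5.55, 5.36 and 6.03. Damaraland hearts stood at 9.05, 11.15, 9.13, 9.96 and 10.68, with 518 to 2477 reads. Naked mole-rat hearts stood at 6.80, 6.55 and 9.95 and guinea pig hearts at 7.37, 10.66 and 8.49, so that 1 library in each was far above the others. All hearts of the other species lay above all mouse hearts for Sln. The other 3 species overlapped.

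Damaraland mole-rat exceeded mouse in Sln by 4.35 (SE 0.74, limma adjusted p = 6.82e-05), and guinea pig exceeded mouse by 3.19 (SE 0.83, adjusted p = 0.00324). In mean scaled reads these were 1119 and 639 against 3.16, and the mouse mean rests on 12 reads in all. Since the deposited scale compresses low values, the voom differences on recovered reads were larger, at 9.23 and 7.78. Both calls held when any single heart library was left out. Naked mole-rat exceeded mouse in Sln by 2.12 (SE 0.83, adjusted p = 0.033). That call was lost without naked mole-rat replicate 3 (1.02, adjusted p = 0.225), without mouse replicate 1 (2.07, 0.0728) or 2 (1.98, 0.0842), with voom (5.18, 0.0976) and in a fit of these species alone (adjusted p = 0.0521).

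Between the mole-rats, naked stood below Damaraland mole-rat in Sln by 2.23 in size (difference -2.23, SE 0.74, limma adjusted p = 0.0151). This call was lost without naked mole-rat replicate 1 (-1.75, adjusted p = 0.084) or 2 (-1.62, 0.1) and with a replicate block (-2.01, adjusted p = 0.0555). Without naked mole-rat replicate 3 the Sln difference was -3.32. Naked mole-rat minus guinea pig was -1.08 (adjusted p = 0.273), and -2.17 and called without that library (adjusted p = 0.0167). Damaraland mole-rat minus guinea pig was 1.15 (adjusted p = 0.186), and 2.06 and called without guinea pig replicate 2 (adjusted p = 0.0267).

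Sln was therefore set beside markers of atrial muscle. The naked mole-rat and guinea pig libraries with the highest Sln were those with the highest Bmp10 and Myl4 in their species, replicate 3 and replicate 2. The sum of the 5 atrial markers analysed of 7 ranged from 6207 to 39391 scaled reads in naked mole-rat, 2442 to 23464 in Damaraland mole-rat, 1451 to 17065 in guinea pig and 2727 to 5574 in mouse. Damaraland hearts did not follow this order in Bmp10 and Myl4: replicate 2 had the highest Sln and the lowest sum of both, 26.5 scaled reads. By the 5 atrial markers, Damaraland replicates 1 to 5 had 2442, 9798, 3265, 12041 and 23464 scaled reads. Sln rose with that sum in the Damaraland hearts other than replicate 2. Replicate 2 also had the highest skeletal muscle marker sum of all hearts, 20194 scaled reads, against 2124 to 5018 in the other Damaraland hearts. Bmp10 and Myl4 sums were 33.8 to 50.5 in mouse hearts and 49.7 in guinea pig replicate 3, where Sln was 8.49. By the 5 atrial markers all mouse hearts lay above guinea pig replicates 1 and 3 (1793 and 1451). An alternative chosen after seeing the data left out the 3 libraries highest in Bmp10 and Myl4. Damaraland mole-rat and guinea pig were then called above mouse in Sln, by 4.18 and 2.28. Naked mole-rat minus mouse was 1.02 (limma adjusted p = 0.0878). The part of atrial or skeletal muscle in the Sln differences was not tested further.

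**Figure D4:**
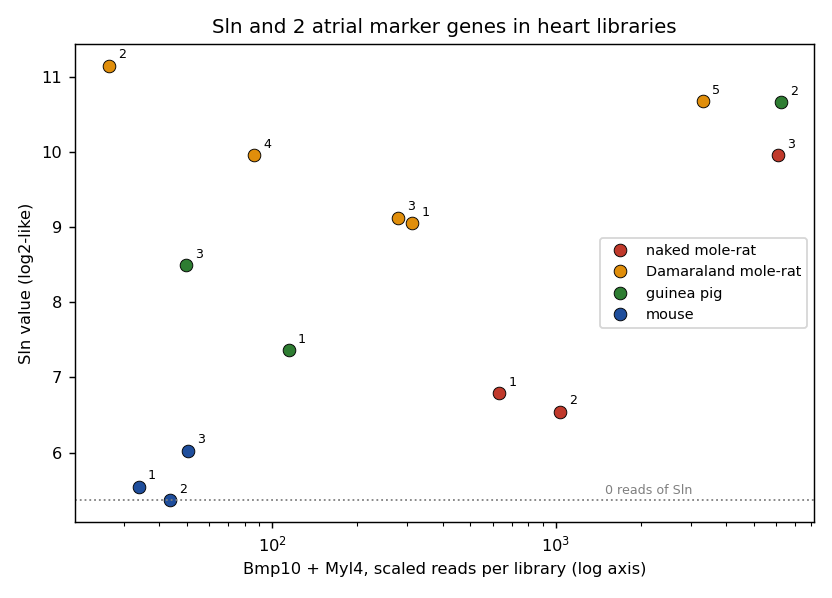
Sln value (y axis, log2-like scale, dotted line at 0 reads) against the sum of Bmp10 and Myl4 scaled reads (x axis, log scale) in the 14 heart libraries, with replicate numbers. The 3 libraries at the right are 1 each of naked mole-rat, guinea pig and Damaraland mole-rat, while at the left Damaraland replicate 2 has the highest Sln with the lowest marker sum and the mouse hearts lie at the lower left.

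Cacna1c, the pore of the L-type calcium channel, was lower in guinea pig than in every other species. Guinea pig hearts stood at 10.70, 10.32 and 10.68. Naked mole-rat hearts stood at 13.00, 13.22 and 12.86, Damaraland hearts at 11.96, 11.92, 12.07, 12.60 and 11.90, and mouse hearts at 12.84, 12.84 and 13.05. Guinea pig overlapped with no other species, and naked mole-rat overlapped only with mouse. Scaled reads of Cacna1c were 5.73 times as high in naked mole-rat, 3.01 times in Damaraland mole-rat and 5.28 times in mouse as in guinea pig (size of the differences 2.46, 1.52 and 2.34, limma adjusted p = 2.29e-08, 1.43e-06 and 4.06e-08). These calls held under every alternative run, including each library left out in turn and the test against a difference of 1.

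Naked mole-rat and mouse did not differ past the threshold in Cacna1c (0.11, SE 0.20, 95% interval -0.31 to 0.53, limma adjusted p = 0.636). Damaraland mole-rat was lower than both, by 0.94 and 0.82 in size (adjusted p = 0.000241 and 0.000639), under the size threshold. The Cacna1c difference of the mole-rats passed it without Damaraland replicate 4 (1.06) or naked mole-rat replicate 3 (1.02), with array weights (1.04), with a replicate block (1.04), with quantile normalisation (1.13) and with equal cardiomyocyte markers (1.32).

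In liver most of these genes were rare. Sln, Casq1, Trdn and Jph2 were under the filter on low values, with at most 42, 6, 5 and 15 reads in any liver library, and Casq1 had 0 reads in all 4 naked mole-rat livers. The most Sln was in Damaraland livers, with 28, 8, 42, 7 and 0 reads. Of the 5 genes tested, none was called in the contrast of the mean of both mole-rats with the mean of both outgroups (limma, 0 also with voom), where 28.1% of 10887 genes were called. At an unadjusted p under 0.05 without a size threshold there were 3, Atp2a2, Pln and Ryr2. In at least 1 of the 6 pairwise comparisons 3 of the 5 genes were called, near the share of all genes (76.4%).

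Atp2a2, whose product also pumps calcium in non-muscle cells, was the abundant member in liver. It was 11.24, 10.94, 11.19 and 11.47 in naked mole-rat, 12.68, 12.36, 12.74, 12.17 and 11.98 in Damaraland mole-rat, 13.22, 12.54 and 12.98 in guinea pig and 12.09 and 12.21 in mouse. Naked mole-rat livers lay below all others. The Atp2a2 differences were -1.18 (SE 0.18, limma adjusted p = 2.48e-05) against Damaraland mole-rat and -1.71 (SE 0.21, adjusted p = 1.68e-06) against guinea pig, and -0.94 (adjusted p = 0.00228) against mouse, under the size threshold. Mouse, the highest species in heart, was not so in liver: guinea pig exceeded mouse in liver Atp2a2 by 0.76 (SE 0.25, adjusted p = 0.0151). This was under the size threshold and rested on 2 mouse livers. The tables were normalised separately, and the difference between tissues was not tested.

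Ryr2 and Pln were low in liver. Ryr2 ranged from 6.29 to 7.89 and was called only for Damaraland mole-rat over mouse, by 1.18 (SE 0.25, limma adjusted p = 0.000625), which was 0.97 with quantile normalisation. Pln was 7.999, 7.74, 7.09, 6.92 and 7.54 in Damaraland mole-rat against 6.01, 6.91 and 6.04 in guinea pig, a difference of 1.14 (SE 0.27, adjusted p = 0.00117). The Pln call was lost without guinea pig liver replicate 1 (0.98) or 3 (0.996), both under the size threshold. Casq2 and Cacna1c were called in no liver comparison. They had only 2 to 24 and 15 to 42 reads in a liver library, so the lack of a call says little.

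The remaining calcium genes were read from a list of 65 partners and regulators in 6 groups, of which 57 were tested in heart. Calls numbered 22 between the mole-rats (11 higher and 11 lower in naked mole-rat, all genes 29.4%), 28 for naked mole-rat against guinea pig (12 and 16, all genes 33.0%) and 25 against mouse (9 and 16, all genes 38.2%). They numbered 13 for Damaraland mole-rat against guinea pig (4 higher and 9 lower, all genes 29.7%), 23 against mouse (11 and 12, all genes 34.9%) and 19 for guinea pig against mouse (9 and 10, all genes 32.1%), the last a share near its background. The median size of the difference, whatever its sign, lay between 0.55 and 0.99 over these comparisons, against 0.62 to 0.75 for all genes tested. In 1 species alone, 10 of the 57 were called for naked mole-rat (all genes 9.02%), 4 for Damaraland mole-rat (6.76%), 7 for guinea pig (6.61%) and 5 for mouse (10.4%). The 3 genes of store-operated entry (Stim1, Stim2 and Orai1) had no call in any heart comparison.

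In both mole-rats 3 of the 57 were lower than in both outgroups and none was higher, a share near that of all genes in either direction (4.68%). Tmem38a encodes TRIC-A, a potassium channel of the store membrane that carries counter-ions during release. It was 8.78, 8.35 and 7.92 in naked mole-rat and 10.43, 10.27, 10.09, 9.19 and 9.95 in Damaraland mole-rat, against 11.26, 10.92 and 11.15 in guinea pig and 12.93, 12.96 and 12.91 in mouse. No 2 species overlapped for Tmem38a, and its mean over the mole-rats was 2.85 below that of the outgroups (contrast -2.85, SE 0.18, limma adjusted p = 7.03e-10). Its smallest mole-rat against outgroup difference, -1.13 for Damaraland mole-rat minus guinea pig, was under the size threshold without Damaraland replicate 4 (-0.93), with array weights (-0.99) and with a replicate block (-0.85). Sri (sorcin), a calcium-binding regulator of the release channel, was 7.90, 8.11 and 8.52 in naked and 7.79, 8.20, 8.03, 8.03 and 8.47 in Damaraland mole-rat, against 10.44 to 10.58 in guinea pig and 9.23 to 9.36 in mouse. Akap7, an anchor that brings protein kinase A to phospholamban, was 7.41 to 7.83 in naked mole-rat and 5.57 to 6.11 in Damaraland mole-rat (1 to 12 reads), against 8.81 to 9.39 in guinea pig and 8.64 to 9.14 in mouse. With equal cardiomyocyte markers the smallest of the 4 differences was -0.83 for Sri and -0.91 for Akap7, under the size threshold, and for Sri it was just under it without naked mole-rat replicate 1.

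Among partners of the release unit, Ryr3, a ryanodine receptor of minor abundance in heart, was higher in naked mole-rat than in each other species. It had 789, 486 and 310 reads there (values 9.55, 8.62 and 10.26), 2 to 19 reads in Damaraland hearts, 25 to 71 in mouse and 0 in all 3 guinea pig hearts. The Ryr3 difference was 2.80 against mouse (SE 0.30, limma adjusted p = 5.43e-07) and 3.35 against Damaraland mole-rat (SE 0.27, adjusted p = 2.09e-08), and no fold is given against guinea pig. Whether each species' gene was complete in the quantified set is not given in the sources used here, which also bears on Cacnb1 and Akap7 at a few reads. Speg, a kinase of the junctional membrane, was lower in guinea pig (8.95, 8.66 and 8.99) than in any other heart (11.19 or more), by 2.90 to 3.77 in size. In guinea pig hearts Jph2 and Cacna1c were thus at their lowest beside a low Speg, while Sri was at its highest.

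Of the 11 channel genes beside Cacna1c, 3 were called in 1 species alone. Naked mole-rat had 2 such calls (9.02% of all genes) and mouse had 0 (10.4%). Guinea pig had 1 (6.61%) and Damaraland mole-rat 1 (6.76%). The share of all genes called alone in any of the species was not computed, so the 3 genes are not read as an excess. Cacna1h, a T-type calcium channel, was 13.74, 13.42 and 13.41 in guinea pig and at most 9.61 in any other heart, a difference of at least 4.43 in size against each species (limma adjusted p at most 1.15e-10). Cacna1g, the other T-type channel of heart, was highest in naked mole-rat (10.22, 10.29 and 9.99) and lowest in Damaraland mole-rat (6.24 to 7.43), 3.41 apart (adjusted p = 4.65e-09), and was called in both species alone. Cacnb1, an auxiliary subunit known mainly from skeletal muscle, was at 0 to 5 reads in naked mole-rat and between 6.98 and 7.67 in all other hearts. Atp2a3, a SERCA pump of non-muscle cells, was higher in guinea pig than elsewhere (mean 9.84 ± 0.14, SD, n = 3, against 8.46 to 8.57). Guinea pig hearts were also the highest in fibroblast and endothelial markers, and the part of such cells in this was not tested.

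Ppp1r1a, inhibitor 1 of protein phosphatase 1 and so a brake on the dephosphorylation of phospholamban, was lower in mouse (mean 6.27 ± 0.13, SD, n = 3) than in each other species (8.62 to 9.05), by 2.35 to 2.78 in size. Slc8b1, the mitochondrial sodium-calcium exchanger, was lower in Damaraland mole-rat (6.41 ± 0.18, SD, n = 5) than in each other species, by 1.08 to 2.11.

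**Figure D5:**
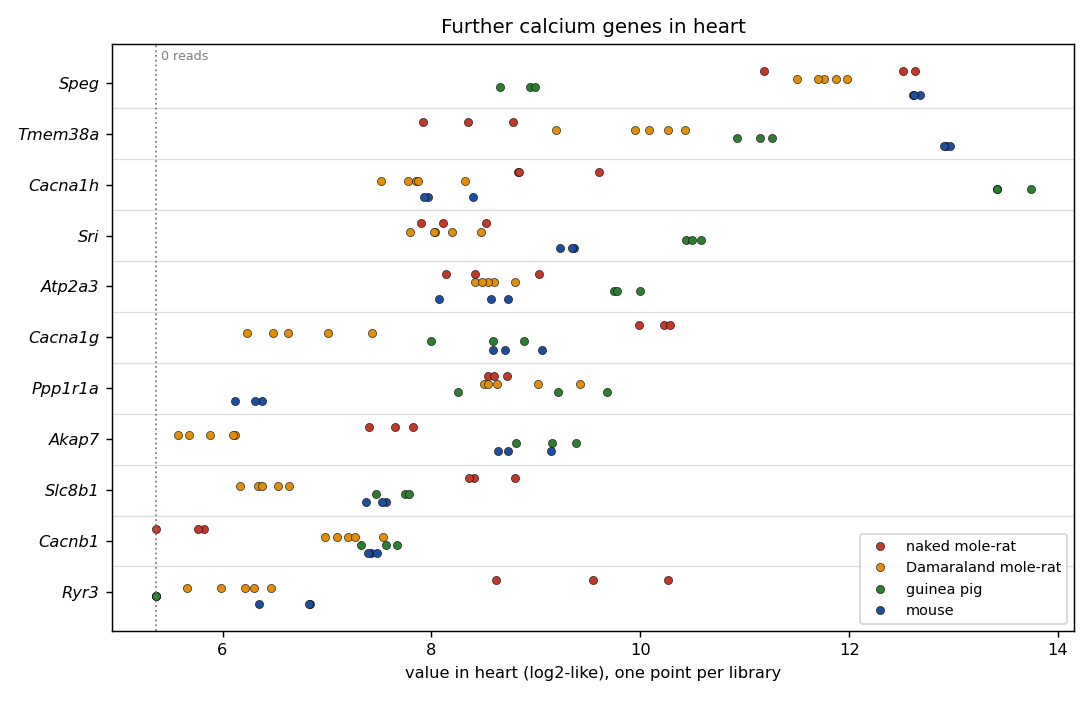
Values in heart (x axis, log2-like scale, dotted line at 0 reads) of 11 further calcium genes named by the rule given under processing, 1 point per library coloured by species. Guinea pig stands far to the right for Cacna1h and to the left for Speg, naked mole-rat to the right for Ryr3 and Cacna1g, and both mole-rats lie to the left of both outgroups for Tmem38a, Sri and Akap7.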

How the data were processed

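RNA of 28 libraries was sequenced. Reads were trimmed with cutadapt, quantified with Salmon 013.1 and transformed with DESeq2, and GRCm38 is the build named, per the submitters' processing notes. How genes were matched across species is not given in the sources used here. The authors deposited 1 table per tissue of variance-stabilised log2-like values. Of 13928 rows, 13921 matched a symbol. A further 26 columns match no sample of this series and were not used.

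The transform was inverted from the value of 0 reads. It gave whole reads for 100% of values (tolerance 0.01, largest deviation 2.93e-08). The main test was limma 3.58.1 (R 4.3.3) on the deposited values: all libraries of a tissue in 1 fit, variance trend, Benjamini-Hochberg over 10667 genes in heart and 10887 in liver whose mean exceeded the value of 0 reads by at least 1. Calls needed an adjusted p under 0.05 and a difference of at least 1. A gene called in a species alone was called with the same sign against each of the other 3. The scripts were tested on simulated heart reads, comparing naked with Damaraland mole-rat. Of 100 genes raised 2-fold in naked mole-rat 24 were called, and of 100 raised 4-fold 85 were. A gene not called can therefore still differ by 2-fold.

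Genes named were all members and, from the wider list, genes called in all 4 mole-rat against outgroup comparisons or in 1 species alone, at most 3 a group by size. Some of these are not reported here. Members, lists and tests were chosen with earlier results of these data known. Replicates are separate animals. Alternatives covered thresholds, filters, scalings, variance model, weights, fits of 2 species, a replicate block, voom on recovered reads and each library left out. 1 animal has different age labels in its heart and liver entries (48 and 36 months).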

Additional observations from a re-analysis of the deposited data

Results flagged for a closer look

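Among 39 tests for a library far from the rest of its species, 3 genes gave one, and chance gives about 1 in 20. Groups of fewer than 4 libraries were not tested, so among hearts only those of Damaraland mole-rat were. In liver, guinea pig and mouse were left out. Naked mole-rat heart replicate 3 was therefore not tested, at 9.59 for Jph2 against 12.21 and 12.11 in the other naked mole-rat hearts. For Sln it was at 9.95 against 6.80 and 6.55. Damaraland heart replicate 4 was low in Pln, at 15.37 (44378 reads), where the other Damaraland hearts lay between 16.06 and 16.31. The same library was high in Cacna1c, at 12.60 (6444 reads), against 11.90 to 12.07. Damaraland liver replicate 5 had 0 reads of Casq1, a value of 4.29, where the other Damaraland livers lay between 4.62 and 4.73 on 1 or 2 reads each.

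Of 30 comparisons that could be set side by side in both tissues, 1 had every library of a species on opposite sides. Atp2a2 was lower in guinea pig than in mouse in heart, with a difference of -1.56, and higher in liver, with 0.76, under the size threshold. The difference between the tissues was not tested, and with quantile normalisation the heart difference was 0.03.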

How the results depend on the processing

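Of the heart differences of the 9 genes, Cacna1c against guinea pig kept its calls under all alternatives. Shares of all genes called were computed for the main test only. The counts of members under alternatives in this section therefore have no background beside them. Without a size threshold the members called numbered 7 for naked mole-rat against mouse, 4 for Damaraland mole-rat against guinea pig and, in liver, 2 for the mean of the mole-rats against that of the outgroups (Atp2a2 and Ryr2). With limma's test against a difference of 1 they were 2 for naked mole-rat against each of the other species, 1 for Damaraland mole-rat against guinea pig, 4 for guinea pig against mouse, and 2 in 1 species alone (Cacna1c and Trdn). For the mean of the mole-rats against that of the outgroups in heart, a comparison added after seeing the data, 5 members were called without a size threshold and 1 with the test against a difference of 1, and 2 to 3 with each library left out. Leaving out each library gave 4 to 6 members between the mole-rats, 3 to 5 for naked mole-rat against guinea pig, 3 to 6 against mouse, 2 to 3 for Damaraland mole-rat against guinea pig, 6 against mouse, 7 to 8 for guinea pig against mouse, 4 to 6 in 1 species alone, and 0 in all 4 mole-rat against outgroup comparisons and in the liver contrast.

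Equal cardiomyocyte markers moved the median of all genes by up to 0.41 in size (Damaraland mole-rat minus guinea pig, -0.41) and the other scalings by less than 0.1. Directions turned for Atp2a2 with quantile normalisation (Damaraland minus guinea pig 0.069, Damaraland minus mouse 0.10, guinea pig minus mouse 0.027), with equal cardiomyocyte markers (naked minus Damaraland 0.13) and with the replicate block (Damaraland minus guinea pig 0.016). Quantile normalisation turned Pln and Ryr2 for Damaraland minus mouse (0.41 and 0.38) and Casq2 for naked minus mouse (0.046). Equal cardiomyocyte markers turned Casq2 for naked minus mouse (0.010) and Damaraland minus guinea pig (-0.16). Pln for naked minus guinea pig was -0.0088 with array weights, -0.10 without the 3 libraries highest in Bmp10 and Myl4, and -0.058 to 0.29 with each library left out. Jph2 for naked minus Damaraland was -0.036 to 1.27 with each library left out. The cause was not tested. None of these but the mouse differences of Atp2a2 had been called.

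Replicate numbers do not name shared animals across species. Deviations of same-numbered hearts correlated at -0.26 to 0.30 (18 pairs), those of other hearts at -0.23 to 0.23 (54 pairs). With the replicate block the members called were 4 between the mole-rats, 4 for naked mole-rat against guinea pig, 4 against mouse, 2, 6 and 7 for the other comparisons, 5 in 1 species alone and 2 for the mean of the mole-rats against that of the outgroups. Values resting on few reads were Sln in mouse hearts, with 0 to 11 reads in libraries that were the deepest of the hearts, and Casq1, Trdn and Jph2 in liver, with at most 15. Casq2 and Cacna1c in liver also rested on few, with at most 24 and 42.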

Other observations

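Several further calcium genes of the wider list were called in 1 species alone in heart and are named here after their values were seen. Asph, whose products include junctin, the partner of triadin on calsequestrin, was highest in mouse (12.03 ± 0.14, SD, n = 3) and lowest in guinea pig (8.78 ± 0.29, SD, n = 3), with a difference of -3.25 for guinea pig minus mouse (limma adjusted p = 8e-09), and was called apart from every other species in both. Srl, sarcalumenin, a calcium-binding protein of the store, was 14.84 ± 0.11 (SD, n = 3) in mouse and at most 12.45 in any other heart (differences of 2.65 to 3.25 in size, adjusted p at most 8.71e-07). Both genes had the mouse above every other species, as did Trdn and Jph2.

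Of the 18 genes of calmodulin, kinases and phosphatases, 4 were called in naked mole-rat alone, in both directions (all genes 9.02%). This group was singled out after its values were seen. Calm3, a calmodulin gene, was 10.24 ± 0.05 (SD, n = 3) there and at least 11.69 in every other heart, while Calm2 at 11.19 ± 0.37 (SD, n = 3) was called against no other species. Rcan1, an inhibitor of the phosphatase calcineurin, was 9.38 ± 0.10 (SD, n = 3) in naked mole-rat and at least 10.55 elsewhere. Itpr1 and Itpr3, receptors of the second calcium release pathway, were higher in naked mole-rat than in each other species, by 1.17 to 1.94 and by 1.06 to 2.18. Camk2b, a subunit of a calmodulin-dependent kinase, was higher by 1.72 to 2.35. Camk2g, another subunit, was lower in Damaraland mole-rat than in each other species by 1.23 to 2.13 in size, and Ppp3cb, a calcineurin subunit, lower in guinea pig by 1.02 to 1.39. These genes were not run under the alternatives.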
